A study of Arabidopsis thaliana with 6 samples.

Results

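Pistil-only FUL peaks are the regions that the authors' ChIP-seq peak list for pistils holds and that share no base with any region of their list for inflorescence meristems (IM). They were chosen by the deposited peak positions alone and numbered 1278 of the 3494 pistil peaks, or 36.6%. The IM list held 3650 peaks, 1480 of them without a pistil counterpart, and both lists together held 7144. FUL tagged with GFP was precipitated from plants that expressed it from FUL's own promoter. Every line carried this transgene, pFUL:FUL-GFP. Pistil material was of stages 12 to 16 and came from ful-1 mutants; the design text also names siliques. IM material came from plants aged 4 to 5 weeks with the ap1-1 and cal-1 mutations and a 35S:AP1-GR transgene, whose constitutively expressed AP1-GR protein had not been induced. All lines were F2 plants of mixed Ler and Col descent, kept at 21 °C under 16 h days and 8 h nights. Each tissue gave 2 ChIP replicates, precipitated with anti-GFP microbeads after fixing for 15 to 30 min, and 1 input library. Tissue, mutant background and any difference in parental DNA cannot be told apart.

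FRUITFULL (FUL) is a MADS-domain transcription factor, a family whose dimers bind the CArG box and act in larger complexes. In the shoot it promotes the floral transition and limits meristem life. In the fruit it is needed for valve growth and keeps valve margin identity genes such as IND and SHP1 and SHP2 out of the valves. FUL loss leaves short, crowded siliques, so genes of the carpel wall, of the margin where the pod opens, and of hormone-driven growth are natural places to look at the pistil peaks.

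Folds and p-values below are the authors' own per-peak values. Because peaks were called on the pooled replicates, each peak has 1 fold and 1 p-value per tissue, with no spread between replicates, and no test between tissues was possible. Read depth is unknown from peak lists. Both lists are selections from longer ones, with peak numbers that run to 14602 for pistil and 13754 for IM, so a region missing from the IM list was not shown to be free of FUL. The lowest −log10 p was 34.4 in the pistil list and 22.4 in the IM list, so the lists ended at different levels of p. Shares carry Wilson 95% intervals, which cover counting error only. In a bulk tissue, binding in fewer cells and weaker binding in each cell cannot be told apart.

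The pistil-only peaks lay mostly in the lower part of the pistil list by fold. Their fold over background ranged from 1.80 to 13.2 with a median of 3.67, and its quartiles were 3.22 and 4.55. Pistil peaks shared with IM ranged from 2.57 to 15.3 with a median of 4.53. Of the 174 pistil peaks with a fold under 3, 109 were pistil-only (62.6%), and of the 137 with a fold of 10 or more, 15 were (10.9%). In between, the share was 40.3% at folds from 3.5 to 4 and 23.8% at folds from 5 to 7. The shared peaks with a pistil fold of 10 or more had overlapping IM peaks with folds from 2.72 to 9.81 and a median of 6.12, each fold being on its own list's scale. High pistil folds thus seldom came without an IM peak, and the 15 that did are the head of the set described next. Fold entered the choice of peaks through the lists themselves, so these shares are a description.

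**Figure D1:**
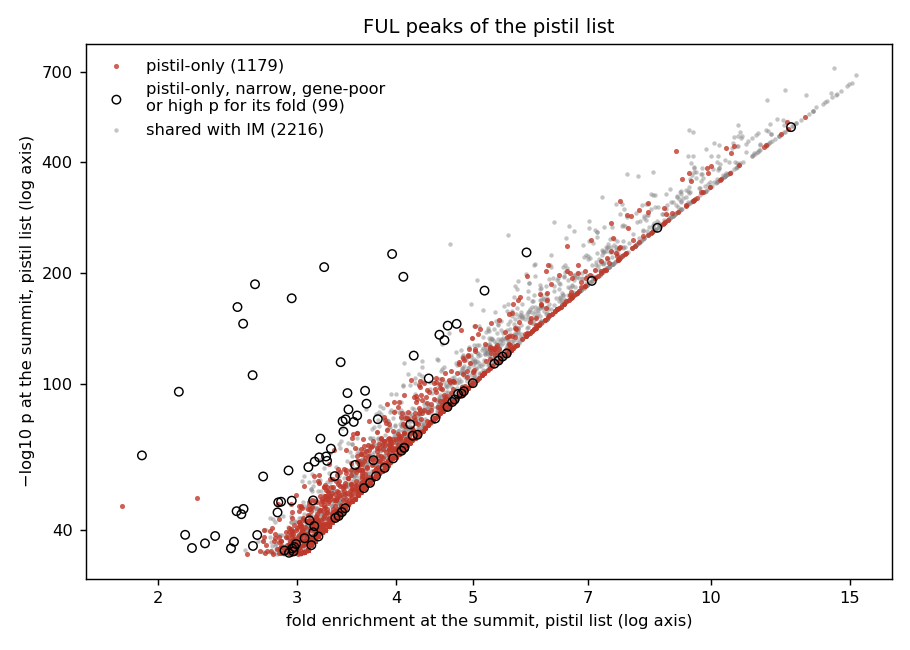
Fold enrichment at the summit (horizontal, log axis) against −log10 p at the summit (vertical, log axis) for every peak of the pistil list: 1278 pistil-only peaks in red or circled, 2216 shared peaks in grey. Pistil-only folds run from 1.80 to 13.2; the circles mark the 99 pistil-only peaks that are under 400 bp wide, lie in gene-poor sequence or have a high p for their fold, and no such marks are drawn on shared peaks.

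The pistil-only peak of highest fold lay beside SAUR29 (AT3G03820), one of the small auxin-up RNA genes, whose products are known to promote cell expansion. It spanned chromosome 3, 977174 to 977972 (TAIR10, 799 bp), with a fold of 13.2 and its summit 169 bp from the gene. Further peaks followed in the same cluster of SAUR genes: one of fold 8.76 at 980345 to 981435, 185 bp from SAUR27, and one of fold 5.08, 138 bp from SAUR26. SAUR28, between them, had all 3 summits within 3 kb, with folds of 13.2, 8.76 and 5.08. No IM peak lay within 3 kb of any of these genes, and the IM peak nearest to the SAUR29 peak was 56385 bp away. The cluster is therefore a stretch of several FUL peaks that was in the pistil list alone.

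Among the 20 pistil-only peaks of highest fold, 9 summits lay inside a protein-coding gene, 7 within 1 kb of one, 3 from 1 to 3 kb away and 1 farther. More than 1 gene lay within 3 kb at 14 of them, so the nearest gene need not be the one regulated. After SAUR29 came AT1G35780 with a fold of 12.6 (summit inside the gene), AT2G27775 with 12.5 (2613 bp away), AT2G30230 with 12.3 (inside) and AT2G23067 with 11.8 (1062 bp away). RFR1 (AT3G23590), which encodes a Mediator subunit known to restrain phenylpropanoid synthesis, held a summit of fold 12.5 at chromosome 3, 8473233 to 8474222. AT2G17830 lay 2619 bp from a summit of fold 11.7, with HK1, a histidine kinase gene of osmotic sensing, 2927 bp from the same summit. Folds from 9.73 to 10.9 made up the rest of the 20.

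Several of those further summits lay at genes of known function. LBD10, a LOB-domain gene of pollen development, was 928 bp from a summit of fold 10.3 whose nearest gene was RTNLB13, a reticulon-like gene, at 29 bp. IAA12, an Aux/IAA repressor of auxin response known from the embryo, was 1132 bp from a summit of fold 10.004 inside AT1G04555. MEE27 (AT2G34880), a jumonji-type histone demethylase gene, held a summit of fold 9.90. ABCG25, which encodes an exporter of abscisic acid, held one of fold 9.80, at chromosome 1, 27084796 to 27086410. EXGT-A3, also called XTH27 and coding for a wall enzyme that cuts and rejoins xyloglucan, held one of fold 9.73. A summit of fold 9.92 had no protein-coding gene within 3 kb, and an annotated pseudogene of AOP2, a glucosinolate gene, lay beside it. The other genes nearest to top summits were AT3G29130 (10.9, inside), AT5G10920 (10.7, at 276 bp, with the kinase gene CIPK5 at 486 bp), AT1G11480 (10.6), AT3G22150 (10.6), AT1G10095 (10.5), AT1G12630 (10.3) and SCPL32 (9.99).

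Distance from the IM list varied widely. The gap between a pistil-only peak and the nearest IM peak ran from 22 to 968717 bp, with a median of 7151 bp. It was under 500 bp for 88 peaks (6.89%), under 3 kb for 372 (29.1%, interval 26.7 to 31.7%) and over 100 kb for 49 (3.83%). Median fold hardly moved with the gap, at 3.63 for gaps under 500 bp, 3.79 for gaps from 10 to 100 kb and 3.38 beyond. A shared pistil peak lay within 3 kb of 254 pistil-only peaks (19.9%) and another pistil-only peak within 3 kb of 279 (21.8%).

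At the edge of the rule, the 3 pistil-only peaks nearest to an IM peak were 22, 38 and 43 bp from it. The first, 950 bp from AT1G70790, had a pistil fold of 3.64 beside an IM peak of fold 7.29. The one between AT5G15220 and GASA4, a gibberellin-regulated gene, had a pistil fold of 7.37 beside an IM peak of 3.57, and that at AT1G33250 had 3.88 beside 4.71. Just on the other side, the shared peaks of least overlap met their IM peak over 60 bp at AOS (pistil fold 4.84, IM fold 2.99), 74 bp at ATHB13 (3.03 and 2.77) and 204 bp at TRM21 (3.51 and 4.41). For peaks this close, the class turns on where the caller ended a region. MACS2, which the processing notes name, adds a letter to a peak name where it splits a region into several summits, and 353 pistil-only names (27.6%) ended in one although each region was listed once.

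**Figure D2:**
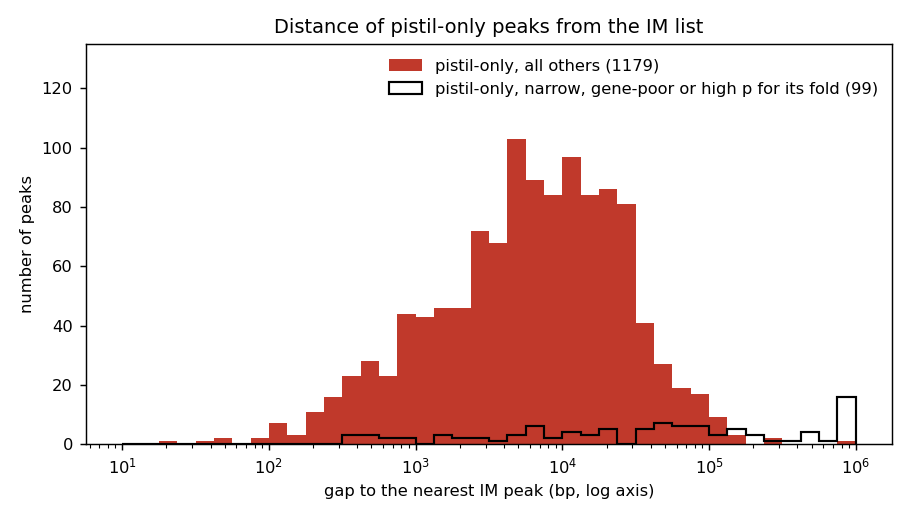
Number of pistil-only peaks (vertical) by the gap to the nearest IM peak in bp (horizontal, log axis). Filled bars are the 1179 ordinary peaks and the outline the 99 that are narrow, gene-poor or of high p for their fold; the median gap over all is 7151 bp, and a group of outlined peaks stands near the right end.

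Pistil-only summits lay farther from genes than shared or IM-only summits. Of them, 23.7% (interval 21.5 to 26.1%) lay inside a protein-coding gene, against 27.3% (25.5 to 29.2%) of shared pistil summits and 32.0% (29.7 to 34.4%) of IM-only summits. A further 46.0% lay within 1 kb of a gene, against 51.0% of shared and 51.0% of IM-only summits. From 1 to 3 kb away were 22.5%, against 17.9% of shared and 14.1% of IM-only ones, and beyond 3 kb 7.75% (99 summits), against 3.79% and 2.84%. The median distance to the nearest gene was 404 bp for pistil-only, 255 bp for shared and 134 bp for IM-only summits. Beyond 3 kb the intervals of pistil-only (6.40 to 9.34%) and shared summits (3.07 to 4.67%) did not overlap, while inside genes they did. The contrast did not hold at every fold: among pistil peaks of fold 5 to 7, 9.03% of pistil-only and 3.43% of shared summits lay beyond 3 kb, and among those of fold 3.5 to 4, 3.59% and 3.76%. Leaving out the 99 peaks of unusual shape or place described near the end, that share was 5.00%. Strand, exons and untranslated regions are not in the gene table used here, so the side of the gene on which a summit fell is not given.

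**Figure D3:**
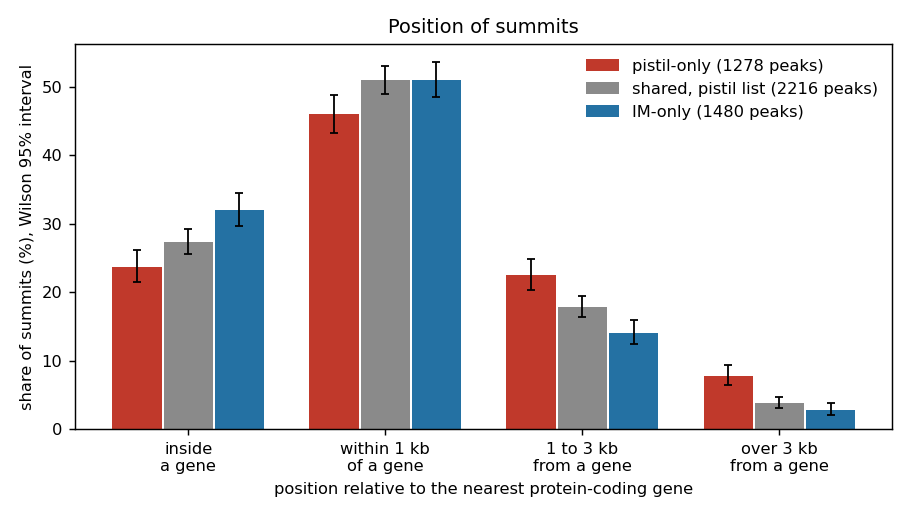
Share of summits in percent (vertical) by place relative to the nearest protein-coding gene (horizontal) for 1278 pistil-only, 2216 shared pistil and 1480 IM-only peaks, with Wilson 95% intervals. Pistil-only bars are lowest inside genes (23.7%) and within 1 kb, and highest from 1 to 3 kb (22.5%) and beyond (7.75%).

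In all, 2189 of 27444 protein-coding genes (7.98%) lay within 3 kb of a pistil-only summit. Of these, 1599 (73.0%) had no IM summit within 3 kb, which is 5.83% of all genes, and 590 (27.0%) had one. A shared pistil summit lay within 3 kb of 395 of the 2189 genes. Not all of the 590 thus had a pistil peak shared with IM besides the pistil-only one. With the IM list limited to the lowest −log10 p of the pistil list, the genes without an IM summit numbered 2520, so this count depends on where the IM list ends. Windows of neighbouring genes overlap, and 1082 of the 2189 were not the gene nearest to any pistil-only summit. They included PI, SEP2, NGA1, VND1, LAC4, UCN, BEH3, BKI1, HB16, MYB16, NAC097, NAC13 and others named below. Of the 1179 summits with a gene within 3 kb, 803 had 2 or more. Most genes had 1 such summit (2002); 176 had 2 and 11 had 3. Besides SAUR28, genes with 3 were the neighbours AT5G55340 and AT5G55330 (folds 8.34, 3.19 and 2.90) and the neighbours AT2G41945 and ZFP8 (7.83, 4.86 and 4.80), of which ZFP8, a zinc-finger gene of trichome initiation, also had 1 IM summit.

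The length of sequence around a gene moved with these counts. Sorting all genes by the distance to their neighbours on both sides, and cutting them into 4 groups of 6861, 4.49% of the most crowded group lay near a pistil-only summit, 6.82% and 9.02% of the next groups, and 11.6% (interval 10.8 to 12.4%) of the group with the longest flanks. Median flank length was 1855 bp over all genes, but 6612 bp over the gynoecium list, 4302 bp over the brassinosteroid list and 3066.5 bp over the SAUR family, and only 734 bp over ribosomal protein genes. Shares of the lists below are therefore to be read against both 7.98% and 11.6%. How far flank length accounts for a list's share was not tested. Across the lists of protein-coding genes, controls aside, 188 of 998 genes (18.8%) lay near a pistil-only summit, and 28 of these 30 lists had a share above 7.98%.

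**Figure D4:**
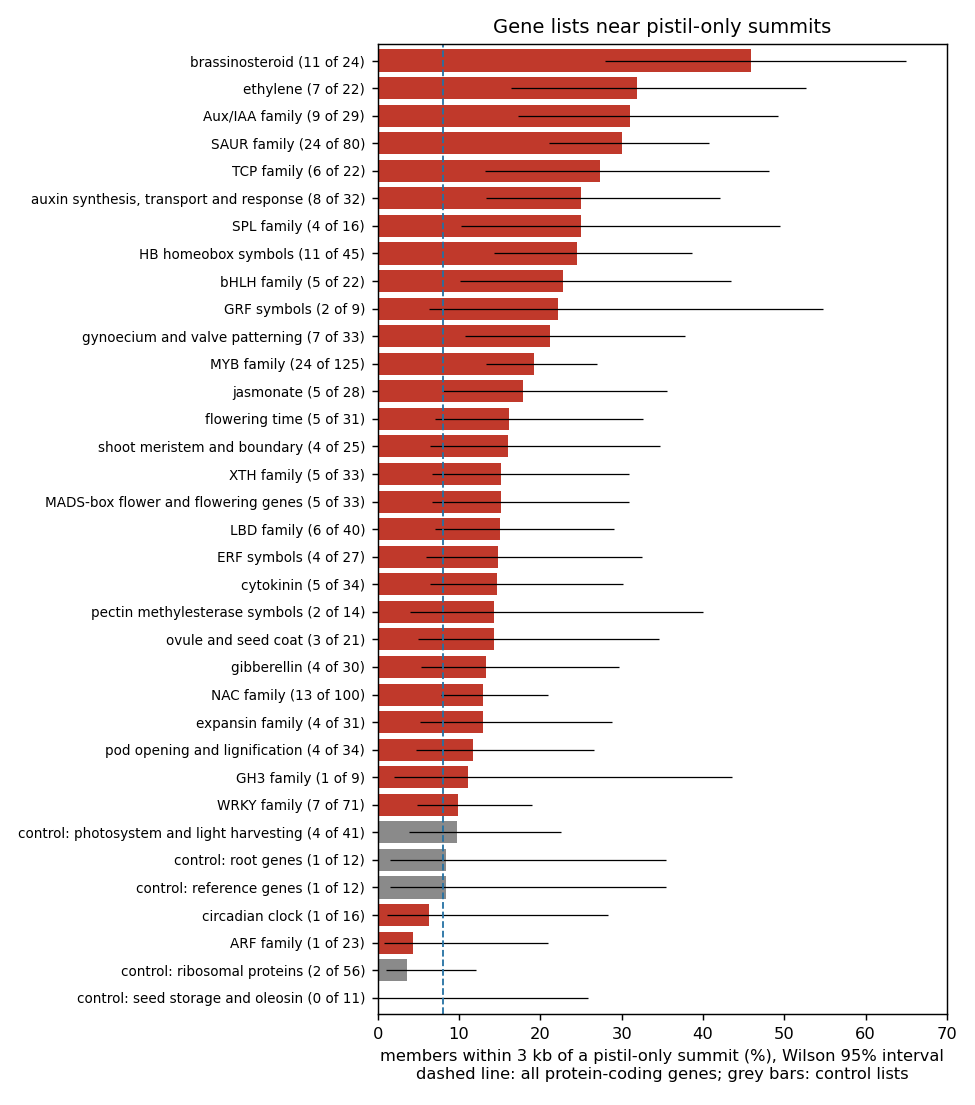
Share of the members of each gene list that lie within 3 kb of a pistil-only summit (horizontal, percent, with Wilson 95% intervals), with counts beside each name; control lists are grey and the dashed line is the 7.98% of all protein-coding genes. Brassinosteroid genes stand at 45.8% and SAUR genes at 30%, while ribosomal protein genes are at 3.57% and seed storage genes at 0.

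Genes of gynoecium and valve patterning had pistil-only summits at 7 of 33 members (21.2%, interval 10.7 to 37.8%). Of the 7, 4 had no IM summit, against 73.0% of all genes near a pistil-only summit. The highest fold was at FIL (AT2G45190, AFO in the gene table), a YABBY gene of abaxial fate that with JAG promotes valve identity. Its pistil-only peak spanned chromosome 2, 18631220 to 18632878, with a fold of 7.82 and its summit 826 bp from the gene. The nearest IM peak was only 524 bp from this peak, although no IM summit lay within 3 kb of FIL. A weaker shared pistil peak of fold 3.13 had its summit 2967 bp from the gene. JAG, a zinc-finger gene of organ growth, had pistil-only summits of fold 4.57 at 833 bp and 3.26 inside the gene. They came on top of a shared pistil summit of fold 9.54 at 171 bp, so JAG was bound in both tissues and its pistil-only peaks were weaker than its shared one. NUB, the close relative of JAG, had folds of 3.79 at 156 bp and 3.10 inside, from peaks under 400 bp wide. An IM summit of fold 4.45 lay 1527 bp from NUB, and the nearest IM peak was 522 bp from its stronger pistil-only peak.

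IND (AT4G00120), a bHLH gene that specifies the valve margin, had a pistil-only peak at chromosome 4, 44446 to 45796. Its fold was 4.23, its summit 1698 bp from the gene, and the nearest IM peak 6948 bp away. The NGATHA genes of style development followed with NGA2 at 3.35 (1718 bp) and 3.29 (inside) and NGA1 at 3.32 (2900 bp). KNAT1, a homeobox gene of the replum, held a summit of fold 2.97, in gene-poor sequence, and also an IM summit of fold 3.67; the IM peak was 620 bp from the pistil-only one. Without the peaks of unusual shape or place the list fell to 5 members, NUB and KNAT1 being lost. The other 26 members had no pistil-only summit. Among them SHP1 and SHP2, the MADS genes of the valve margin, had shared peaks with pistil folds of 6.11 and 12.2, while SPT, CRC and YAB3 had no listed peak of either tissue within 3 kb.

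**Figure D5:**
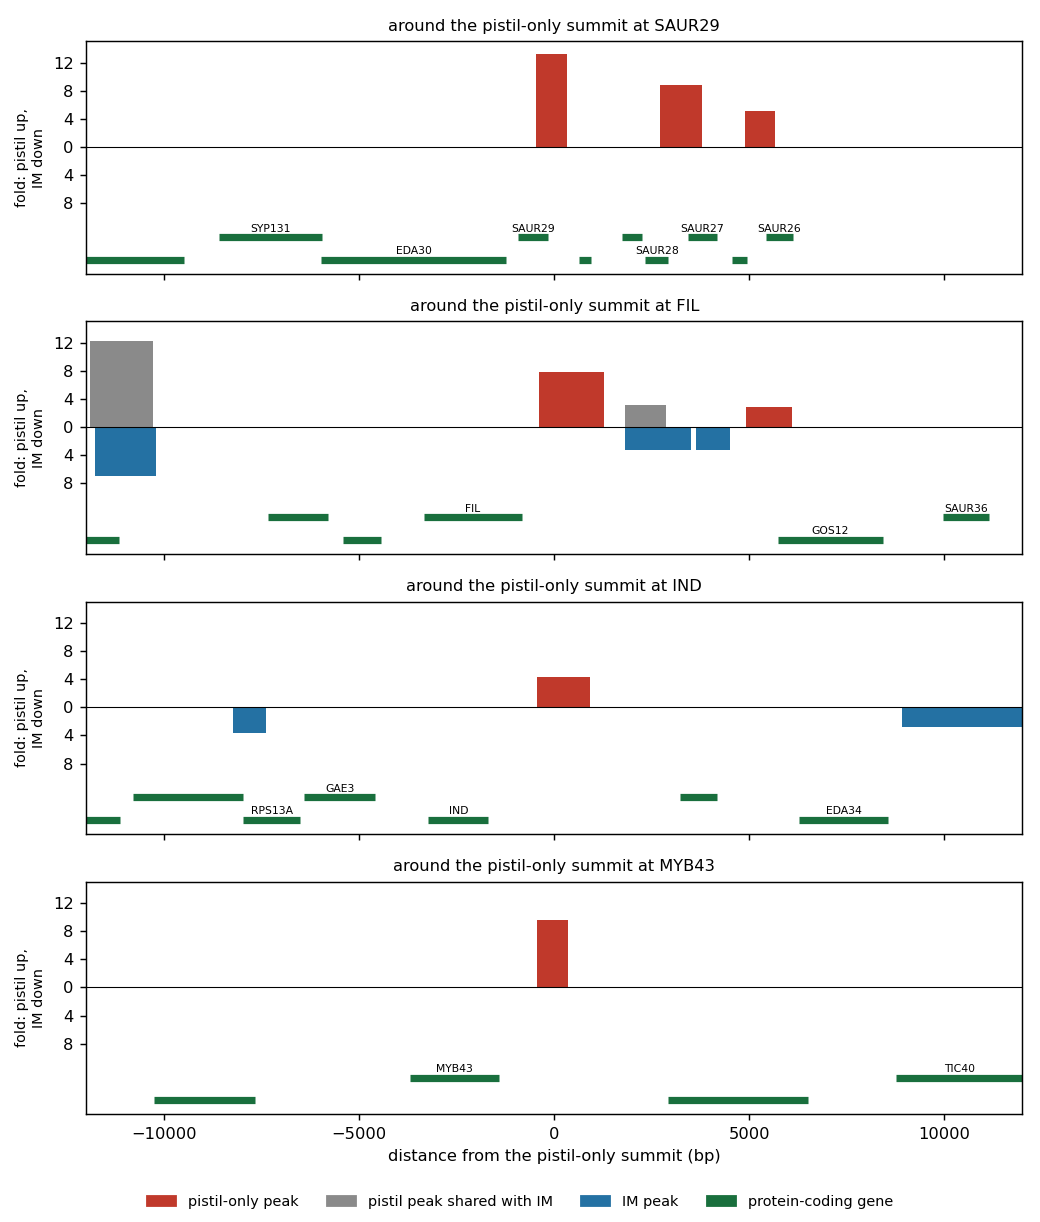
Fold enrichment of peaks (vertical; pistil peaks upward, IM peaks downward, each on its own list's scale) against distance in bp from the pistil-only summit nearest to SAUR29, FIL, IND and MYB43 (horizontal). Genes are green bars without strand. They are unnamed where the symbol or locus number begins with AT, or where the middle of the drawn bar lies close to the edge. SAUR29 is followed by pistil-only peaks of fold 8.76 and 5.08, FIL has a pistil-only peak of 7.82 near shared peaks, and IND and MYB43 have one each, of 4.23 and 9.50.

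MADS-box genes of flower and flowering were near pistil-only summits at 5 of 33 members (15.2%, interval 6.65 to 30.9%), and 4 of these 5 also had an IM summit, against 27.0% of all genes near. With IM peaks widened by 500 bp the list had 2 members, since the pistil-only peaks of AG, SEP2 and AGL42 lay 283, 376 and 435 bp from an IM peak. PI, a petal and stamen identity gene, had the highest fold, 6.07 at 1017 bp. AG, the carpel and stamen identity gene, held a pistil-only summit of fold 5.59 inside the gene, beside a shared one of fold 11.7 at 1639 bp. SEP2, a cofactor of the floral identity genes, had one of 4.00 at 2001 bp, and AGL42, a relative of SOC1, one of 3.29 at 1474 bp. AP1 was the member with no IM summit: its pistil-only peaks had folds of 4.15 at 2519 bp and 4.14 at 1652 bp, and the IM peak nearest to the first was 30401 bp away. The IM plants carried the ap1-1 allele and the uninduced AP1-GR transgene, and whether these bear on the AP1 locus was not tested. FUL itself had no pistil-only peak; its shared pistil summit, of fold 4.68, lay 2438 bp from the gene, and its IM summit, of fold 8.10 on the IM list's scale, lay at another place, 82 bp from it. Within 1 kb of a pistil-only summit, where 4.11% of all genes lay, the list had 1 member, AG.

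Genes of pod opening and lignification had pistil-only summits at 4 of 34 members (11.8%, interval 4.67 to 26.6%), a share near the 11.6% of long-flanked genes, and all 4 lacked an IM summit, as did 73.0% of all genes near a pistil-only summit. Those at the transcription factors were among the stronger pistil-only peaks. MYB43 (AT5G16600), a regulator of secondary wall genes, lay 1424 bp from a peak of fold 9.50 at chromosome 5, 5441402 to 5442219. VND1, a NAC gene that drives vessel formation, lay 479 bp from one of fold 8.40, at chromosome 2, 7851409 to 7852391. XND1, a NAC gene that represses secondary wall formation in xylem, had folds of 8.21 at 658 bp and 3.03 inside. LAC4 (IRX12 in the table), a laccase of lignin polymerisation, was 2882 bp from one of 3.52. The master genes NST1 and NST3 and the list member QRT2 had no listed peak of either tissue within 3 kb. ADPG2, a polygalacturonase gene of dehiscence, had a shared peak with a pistil fold of 10.2.

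Ovule and seed coat genes had pistil-only summits at 3 of 21 members (14.3%, interval 4.98 to 34.6%). CUC2, a boundary NAC gene, had a fold of 6.40 at 337 bp and also an IM summit. UCN, a kinase gene of integument growth, had 6.17 at 972 bp and no IM summit. BEL1, the homeobox gene of integument identity, had 4.42 at 2685 bp. It also held a shared pistil summit of fold 4.00 and an IM summit of fold 3.26, both inside the gene. STK, ANT and INO, other ovule regulators, had no listed peak in either tissue within 3 kb. The meristem and boundary list, which shares CUC2 and KNAT1, had 4 of 25 members near; WOX1 (fold 4.54, inside) and PRS (4.02, at 145 bp), homeobox genes of lateral organ margins, were its others. WOX1 rested on a peak with a high p for its fold, and without the peaks of unusual shape or place that list fell to 2.

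Flowering-time genes were near at 5 of 31 members (16.1%, interval 7.09 to 32.6%). LMI1, the meristem identity gene listed as HB51, had pistil-only folds of 4.81 at 142 bp and 3.22 inside, beside a shared pistil summit of fold 9.57. SPL3, a target of miR156 that promotes flowering, had 3.64 at 556 bp. FT, the mobile flowering signal, had a weak one of 3.31 at 1232 bp, at chromosome 1, 24334880 to 24335633, with the nearest IM peak 52464 bp away. TEM2 (RAV2), a repressor of FT, had 3.28 beside a shared pistil summit of 5.56, and FRI, an activator of FLC, had 3.14.

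SAUR genes had pistil-only summits at 24 of 80 members (30%, interval 21.1 to 40.8%). Of the 24, 16 had no IM summit, against 73.0% of all genes near a pistil-only summit. SAUR genes stand in clusters, so the 24 genes rested on 20 peaks, and 14 were the gene nearest to one, as were 4.03% of all genes. After the SAUR26 to SAUR29 cluster came SAUR24 with a fold of 7.53 at 407 bp. Aux/IAA genes, repressors of auxin response, were near at 9 of 29 (31.0%, interval 17.3 to 49.2%). Of these, 7 had no IM summit, to be read against the same 73.0%. IAA12 led, and IAA19, which acts in growth responses, had summits of fold 7.27 at 410 bp and 4.65 at 441 bp. IAA3 (SHY2) held one of 3.98 and IAA6 lay 426 bp from one of 3.84. The folds below IAA19 were low, and with peaks above the median fold of the pistil list alone 2 Aux/IAA genes were left, against 14 SAUR genes. Over all genes near a pistil-only summit, that limit left 789 of 2189.

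Auxin synthesis, transport and receptor genes were near at 8 of 32 (25%, interval 13.3 to 42.1%). PIN4, an auxin efflux carrier gene, held the summit of highest fold, 5.85. YUC3 and YUC6, coding for enzymes of auxin synthesis, held summits of 4.73 and 4.00, and PIN7 lay 42 bp from one of 3.77 and also had IM summits. ARF genes, the transcription factors that Aux/IAA proteins bind, were near at 1 of 23 (4.35%, ARF4 with 3.19). That count was 3 when sharing was judged by an IM summit within 500 bp, and 4 with the IM list limited to the lowest −log10 p of the pistil list. Aux/IAA genes numbered 10 under each of these rules. GH3 genes of auxin conjugation were near at 1 of 9 (GH3.1 with 4.71, from a narrow peak). The difference between these families was not tested.

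Brassinosteroid genes had the highest share of any list, with 11 of 24 members near (45.8%, interval 27.9 to 64.9%), from 11 peaks. Of the 11, 5 lacked an IM summit, against 73.0% of all genes near a pistil-only summit; this difference was not tested. Their median highest fold was 3.32. BEH3, a homologue of the response factor BZR1, had the highest, 9.04 at 1371 bp, at chromosome 4, 10350551 to 10351516. BKI1, the inhibitor of the receptor BRI1, had 4.83 at 1163 bp, BEH1 had 4.38 inside the gene and BEE2, a bHLH gene of the response, 3.80 at 103 bp. BRI1 had a pistil-only summit of 3.02 at 33 bp but a shared one of 10.3 at 1580 bp. With peaks above the pistil list's median fold the count was 3, and over all genes 789 of the 2189 were left. Most of these members thus rested on weaker peaks, as did most genes near a pistil-only summit. Within 1 kb of a summit, where 4.11% of all genes lay, the list had 7 members.

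Among the other hormones, ethylene genes were near at 7 of 22 (31.8%, interval 16.4 to 52.7%). Of the 7, 5 had no IM summit, against 73.0% of all genes near a pistil-only summit. ACS2, coding for an enzyme of ethylene synthesis, held a summit of fold 6.95, and its relative ACS6 lay 1427 bp from one of 5.62. EIN2, the central signalling gene, lay 2341 bp from one of 5.26 and had an IM summit inside it, and the receptor gene ETR1 lay 2808 bp from one of 4.16. Within 1 kb the list had 3 members. Jasmonate genes were near at 5 of 28 (17.9%). MYB21, needed for stamen and petal maturation, had 6.53 at 1745 bp beside a shared summit of 9.50. MYC4, AOS and LOX3 had 4.21, 3.84 and 3.74, and AOS also had a shared pistil summit of 4.84. Gibberellin genes were near at 4 of 30 (13.3%). GA1, the first enzyme of the pathway, had 6.36 at 2133 bp. GA20OX3, GA2OX2 and GA3OX1, whose products make or break down active gibberellin, had 4.29, 3.90 and 2.78. Of the 4, only 1, GA1, had no IM summit, against 73.0% of all genes near a pistil-only summit. GA20OX3 also had a stronger shared pistil summit, of 5.09. Cytokinin genes were near at 5 of 34 (14.7%), with LOG1 at 3.64, ARR6 at 3.32, ARR8 at 3.09 and CKX1 at 3.05. LOG1 also had a shared pistil summit of fold 9.49 and an IM summit of fold 6.81. ARR8 also had an IM summit, of fold 2.94. None of the pistil-only folds at cytokinin genes lay above the pistil list's median. Of the 2189 genes near a pistil-only summit, 789 had a pistil-only fold above it.

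Of the growth-related transcription factor families, TCP genes were near at 6 of 22 (27.3%, interval 13.2 to 48.2%), and each of the 6 kept a peak above the median fold. Over all genes near a pistil-only summit, 789 of 2189 kept one. TCP4, known to limit cell proliferation in leaves and petals, lay 192 bp from a summit of fold 7.49. BRC1, the branching repressor, held one of 6.62 beside a shared one of 10.1. TCP7 had 5.57 at 696 bp and TCP15 had 5.20 at 1745 bp. SPL genes were near at 4 of 16 (25%), all without an IM summit, as were 73.0% of all genes near. With peaks above the median fold the count was 1, and with the limited IM list 7. SPL11 held a summit of 7.86, and SPL3, SPL12 and SPL10 had 3.64, 3.59 and 3.33. GRF8 and GRF4, growth-regulating factors, had 5.91 and 3.77, which made 2 of 9. HB homeobox genes were near at 11 of 45 (24.4%), led by HB16 with 6.43 at 2951 bp, HB51, HB-7 with 4.26 and HB53 with 4.06. The 11 included neighbouring loci that matched the same HB name and shared a summit of fold 3.09, so that name was counted more than once. LBD genes were near at 6 of 40 (15.0%), with LBD42 at 5.27, LBD11 at 4.91 and ASL5 at 3.99 after LBD10. ASL5 also had a shared pistil summit of fold 11.1 and an IM summit of fold 6.32.

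In the large families of mixed function the share varied from 9.86% to 22.7%. MYB genes were near at 24 of 125 (19.2%, interval 13.3 to 27.0%). Of the 24, 19 had no IM summit, against 73.0% of all genes near a pistil-only summit. MYB43, MYB16 (7.97 at 2452 bp), which acts in epidermal cell shape and cuticle, MYB21 and MYB49 (5.59) led. NAC genes were near at 13 of 100 (13.0%), led by VND1, XND1, NAC097 (7.72 at 2125 bp) and NAC13 (6.68 at 2140 bp). WRKY genes, known mostly from defence, were near at 7 of 71 (9.86%), with WRKY65 at 4.91, the neighbours WRKY54 and WRKY55 sharing a summit of 4.55, and WRKY40 at 4.10. WRKY54 and WRKY55 also had IM summits, one of fold 3.48 inside WRKY54, and the nearest IM peak was 662 bp from their pistil-only peak. Genes with a bHLH symbol were near at 5 of 22 (22.7%), among them BNQ2 with 5.55, and ERF genes at 4 of 27 (14.8%), the highest being ERF-1 with 4.42. The circadian clock list had 1 of 16, PRR5 with 3.74.

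Cell wall families had shares from 12.9% to 15.2%, above that of long-flanked genes by less than the width of their intervals. Expansin genes were near at 4 of 31 (12.9%), EXPA18 having 4.68, EXPA13 4.59, EXPA8 3.11 and EXPA1 3.09. XTH genes were near at 5 of 33 (15.2%). After XTH27, which also had a shared pistil summit of 5.83 at 1737 bp, came XTH7, XTH24 and XTH31 with 3.87, 3.84 and 3.77. Pectin methylesterase symbols gave 2 of 14, PME3 with 3.62 and PME61 with 3.13. Control lists gave 2 of 56 ribosomal protein genes (3.57%), 4 of 41 photosystem genes (9.76%), 1 of 12 reference genes, 1 of 12 root genes and 0 of 11 seed storage genes, the last of which allows a share of up to 25.9% by the same interval. The highest control fold was 5.61, at LHCA2.

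MicroRNA genes were near at 18 of 326 (5.52%, interval 3.52 to 8.56%), a share close to the 6.05% of all genes outside the protein-coding class, and 16 of the 18 had no IM summit, against 82.3% of all genes near that are outside that class. The count was 32 with the limited IM list and 10 for the gene nearest to each summit. MIR172b, whose product represses AP2-type genes, had pistil-only folds of 5.65 at 604 bp and 3.38 at 1689 bp, with the nearest IM peak 80607 bp from the first. MIR167a, whose product targets ARF6 and ARF8, had 5.26 at 1276 bp. MIR8166 and MIR5642a followed with 4.39 and 4.20, the second from a peak 234 bp wide. Over all gene classes 7.45% lay near a pistil-only summit.

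A minority of the pistil-only peaks had an unusual shape or place. In width, 56 (4.38%) spanned under 400 bp, down to 234 bp, against 0 of 2216 shared pistil peaks, whose narrowest spanned 409 bp, and 5 peaks of the IM list. Of the 56, 31 lay within 500 bp of another of them and 26 had fewer than 20 protein-coding genes within 100 kb. Such gene-poor surroundings held 53 pistil-only peaks (4.15%, interval 3.18 to 5.38%), against 0.812% of the shared peaks and 1.35% of those in IM alone. For 34 of the 1278 (2.66%), −log10 p exceeded 1.5 times the median of pistil peaks of like fold, against 0.857% of shared peaks. Together 99 pistil-only peaks (7.75%) had at least 1 of the 3 features, against 1.67% of shared peaks. These features were noticed in the data and the limits chosen afterwards. Median width over all pistil-only peaks was 805.5 bp, against 966.5 bp for shared and 953 bp for IM-only peaks.

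The far end of the set was of this kind. On chromosome 2, 9 peaks between 2937916 and 3496794 lay over 500 kb from any IM peak, with folds from 1.80 to 3.95, and 8 of them had a high p for their fold. This is the region next to the centromere in which the reference genome holds a large insertion of mitochondrial DNA. It held the 3 lowest folds of all pistil-only peaks: 1.80 inside AT2G07623, 1.91 at AT2G07722 and 2.12 at AT2G07633. On chromosome 3, 4 peaks between 14196159 and 14201443 lay among ribosomal RNA genes, and 2 of the 4 annotated rRNA genes were near a pistil-only summit while 0 were near a shared or IM-only one. On chromosomes 4 and 5, 2 and 7 further peaks lay in gene-poor sequence. Summits inside pseudogenes were 19 of 1278 (1.49%, interval 0.954 to 2.31%), against 4 of 2216 shared (0.181%) and 4 of 1480 IM-only ones (0.270%). Whether copy number, mapping of repeats or organelle DNA differed between the tissues was not tested.

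The widest pistil-only peak, 5182 bp at chromosome 3, 13536583 to 13541764, lay 52242 bp from an IM peak and also had unusual features. Its fold was 3.24, no protein-coding gene lay within 3 kb, 6 lay within 100 kb, and its −log10 p was 5.18 times that of peaks of like fold. The next were 4566 bp wide at AT2G07722, 3706 bp at AT1G20970 (fold 4.09), 3559 bp at SP1L3 (5.17) and 3198 bp at AT5G65660 (3.62). Peaks of 2 kb or more made up 3.05% of pistil-only peaks, against 7.67% of shared and 7.03% of IM-only ones. Of the genes described above, NUB, KNAT1, WOX1, GH3.1, MIR5642a and AT1G35780 rest on peaks with one of the unusual features.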

How the data were processed

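Tools named in the submitters' processing notes, with no role, are MACS2 2.1.0, Bowtie 1.1.2, deepTools and Picard 2.60, and the build named is TAIR10. How the listed peaks were selected is not stated there. Per tissue the authors deposited 1 list of peaks called on pooled replicates, in narrowPeak layout. Its fold is a ratio at the summit, its p-value is deposited as −log10, and its score equals 10 times the deposited −log10 p, cut to a whole number; the q-value columns, 2 in all, were not used.

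Here, peaks were compared with an overlap of 1 bp or more (Python 3.11.15, pandas 2.3.3; bedtools 2.31.1 as a check), and the code was tested on simulated peaks. Summits were set against 27444 protein-coding genes of a RefSeq table of assembly TAIR10.1. Its coordinates are not printed. As a check of register, 23.7% of pistil-only summits lay inside genes in place and 52.3% to 61.5% when moved by 2, 5 or 10 kb. Distance is to the nearest end of a gene, and 0 means inside. Flank length is the summed distance to the neighbouring protein-coding genes.

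The peaks and gene lists were chosen with earlier results of these data known. Families were gathered by symbol, 23 genes that a pattern took wrongly were removed, and 2 names were not matched. The ribosomal, SAUR and HB patterns may still hold other genes. Named are the genes nearest to the top 20 peaks, up to 4 members per list by fold, all members near for the MADS-box and fruit lists, and the genes at the widest, lowest and borderline peaks and with most summits; genes named for having no pistil-only peak, other genes within 3 kb of a top peak, LHCA2, SAUR24, FRI, BRI1 and the extremes of flank length were picked after their values were seen. No sequence was used, so the planned search of promoters for CArG boxes and other motifs was not run. Groups came from the labels.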

Additional observations from a re-analysis of the deposited data

How the results depend on the processing

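Across the other overlap rules, the IM list limited to the lowest −log10 p of the pistil list, and the peaks left after dropping those of unusual shape or place (chosen after seeing the data), pistil-only peaks numbered 1179 to 1803 and their genes 2066 to 3094. All 2189 genes were kept when sharing needed an overlap of 50% of the shorter peak, when it needed IM summits within 500 bp, and with the limited IM list. A 50% overlap or a shorter IM list can only add pistil-only peaks, so there this outcome was fixed in advance. The summit rule raised the number of peaks to 1475, so it too was little test of stability. With pistil peaks above the median fold only, there were 440 peaks, 789 genes, 604 genes without an IM summit, 88 list members (206 of 1324 as reported, microRNA genes included), a median width of 896.5 bp and 19.5% of summits inside genes. Within 1 kb there were 1128 genes (4.11%), 984 without an IM summit and 127 list members, and for the nearest gene alone 1107 (4.03%), 909 and 124. The limited IM list gave 2520 genes without an IM summit, a median width of 830 bp and 6.21% of summits beyond 3 kb. An IM summit within 500 bp as the rule gave a median width of 843 bp, and dropping the unusual peaks gave 5.00% beyond 3 kb. Of 288 list counts, 78 moved by over 1.5 times, 30 of them with the median fold as limit, 19 within 1 kb, 13 for the nearest gene and 11 with the limited IM list. MADS-box genes fell to 2 with IM peaks widened by 500 bp. Fewer peaks or shorter windows lower these counts by construction.

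No paired analysis was possible because each list was called on pooled replicates, which also left no replicate to leave out. The CArG box counts were not run. Depth and input signal are unknown from peak lists, so no difference in FUL binding between tissues was measured.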
